A study of Homo sapiens with 2 samples.

Results

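Among the SOX9 binding sites of HT-29 cells, 800 peaks lay in the first intron of a protein-coding gene and away from any promoter. They were taken from a list of 17847 peaks, of which they made up 4.48% (4.19% to 4.80%, Wilson 95% interval). A peak was included when its summit fell in the first intron of the canonical transcript of a protein-coding gene and farther than 3 kb from every annotated transcription start site (TSS). No measured value entered this choice beyond the calling of the peak. Peaks as far from TSSs numbered 1686 in later introns, 4066 outside protein-coding genes and 154 on exons. The remaining 11141 peaks lay within 3 kb of a TSS.

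HT-29 is a human colorectal adenocarcinoma line that expresses SOX9 from its own gene. Chromatin fixed with formaldehyde was precipitated with a SOX9 antibody in the ChIP sample, and the input sample was the same kind of chromatin sequenced with no antibody. Both came from untreated cells of the unmodified line, and there was 1 library of each, made from 1 biological replicate. The labels give DMEM with serum as the medium, whereas the study's methods name McCoy's 5A. Each library held 12320108 aligned tags after the input had been reduced to the size of the ChIP library. No value below therefore has a replicate error, and the intervals given cover counting error only.

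SOX9 is a transcription factor with a high-mobility-group (HMG) domain that binds the minor groove of DNA and bends it. In the intestine it is present in the stem and progenitor cells of the crypts and in Paneth cells, and in cartilage it switches on matrix genes as a dimer on paired, facing binding sites. First introns are often long and are known to hold many enhancers, which are stretches of regulatory DNA that act on a promoter from a distance.

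The recognition sequence of SOX9, called Motif 2 in the study, is 7 bases long: 2 bases that are each A or T, then CAA, then A or T, then G. Motif 3 is a pair of such copies facing each other across a spacer of 4 bp, here with 1 copy exact and at most 2 mismatches in the other. The study found both by a motif search in the strongest of these same peaks. Of the 800 first-intron peaks, 61 had Motif 3 within 100 bp of the summit. Each of them also counts under Motif 2. The 6 shown are among those with the most tags and give the paired arrangement at strong sites, with both copies and the spacer in capitals (hg19, plus strand, 5′ to 3′).
STEAP4, chr7:87919230-87919291: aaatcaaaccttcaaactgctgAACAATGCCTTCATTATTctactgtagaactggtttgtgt
ITGB8, chr7:20380684-20380745: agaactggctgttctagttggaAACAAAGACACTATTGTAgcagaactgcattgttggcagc
ZNF710, chr15:90577925-90577986: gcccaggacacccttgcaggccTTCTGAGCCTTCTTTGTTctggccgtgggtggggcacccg
LRP5, chr11:68095920-68095981: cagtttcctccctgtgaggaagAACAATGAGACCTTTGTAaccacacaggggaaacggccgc
SLC7A5, chr16:87887930-87887991: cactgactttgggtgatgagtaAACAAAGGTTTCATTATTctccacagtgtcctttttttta
MAPK8, chr10:49599362-49599423: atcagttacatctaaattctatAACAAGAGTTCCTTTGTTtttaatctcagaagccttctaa

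In 4 of the 61 peaks both copies were exact. The LRP5 site above is one, and the other 3, all in peaks with few tags, show the same layout.
CNTN1, chr12:41145992-41146053: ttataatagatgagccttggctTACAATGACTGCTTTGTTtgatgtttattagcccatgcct
PHKA2, chrX:18991801-18991862: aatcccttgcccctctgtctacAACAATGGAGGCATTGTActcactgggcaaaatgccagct
BLTP3B, chr12:100521931-100521992: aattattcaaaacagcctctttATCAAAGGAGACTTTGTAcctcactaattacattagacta

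AP-1, the dimer of JUN and FOS proteins, binds TGACTCA or TGAGTCA. Of the peaks with an AP-1 string and no Motif 3, 3 strong ones are shown with that string in capitals.
SLC2A12, chr6:134357080-134357130: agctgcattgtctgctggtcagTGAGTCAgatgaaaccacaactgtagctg
PMEPA1, chr20:56273466-56273516: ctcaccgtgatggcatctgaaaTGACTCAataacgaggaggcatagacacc
MALL, chr2:110863854-110863904: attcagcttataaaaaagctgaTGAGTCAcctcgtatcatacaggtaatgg

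In genes that the study names for this experiment, the motif nearest to the summit is shown for the peaks that had one, first for LRIG1 (Motif 3, then Motif 2), then for SMAD3 and LRP5 (Motif 2). The copies of SMAD3 and LRP5 lie on the minus strand, so their reverse complements are printed.
LRIG1, chr3:66531789-66531850: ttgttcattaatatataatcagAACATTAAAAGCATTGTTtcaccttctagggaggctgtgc
LRIG1, chr3:66522961-66523011: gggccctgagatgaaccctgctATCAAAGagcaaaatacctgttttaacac
SMAD3, chr15:67442546-67442596: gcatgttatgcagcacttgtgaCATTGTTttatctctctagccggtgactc
LRP5, chr11:68099123-68099173: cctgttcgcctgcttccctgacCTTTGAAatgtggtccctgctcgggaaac
LRP5, chr11:68110243-68110293: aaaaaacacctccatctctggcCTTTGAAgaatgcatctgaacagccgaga

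Motif 1 is CCAAT, the recognition sequence of the factor NF-Y, with 2 purines before it, then G or C and then a purine. It was found in 14 of the 800 peaks, and the 2 of these with the most tags are shown. That of IQCJ lies on the minus strand, so its reverse complement is printed.
PLEKHA6, chr1:204301210-204301262: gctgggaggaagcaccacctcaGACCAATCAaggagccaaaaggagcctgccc
IQCJ, chr3:158876195-158876247: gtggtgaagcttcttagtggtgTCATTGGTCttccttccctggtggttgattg

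First introns held more SOX9 peaks than their length or their input signal accounted for when set against later introns. Farther than 3 kb from every TSS, first introns covered 194 Mb, which was 7.55% of the sequence and 9.42% of the input signal at such distances, and they held 11.9% of the peaks there (11.2% to 12.7%). Density was 4.12 peaks per Mb in first introns, against 2.69 per Mb in later introns and 2.38 per Mb outside protein-coding genes. These lengths include gaps in the genome assembly, where no peak can be called, so a class with more gaps has a lower density per Mb. Per Mb, first introns exceeded later introns 1.53-fold (1.41 to 1.67) and regions outside genes 1.73-fold (1.61 to 1.87). Per unit of input signal, which corrects for copy number and for how well a region can be sequenced, the ratios were 1.44 (1.33 to 1.57) and 1.25 (1.16 to 1.35).

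Both the first introns and the other regions had more peaks close to TSSs, so the comparison was repeated at equal distances. First introns held 156 peaks at 3 to 5 kb, 229 at 5 to 10 kb, 201 at 10 to 20 kb, 157 at 20 to 50 kb and 57 beyond 50 kb from the nearest TSS. Their density was 5.30 peaks per Mb at 3 to 5 kb and 2.51 per Mb beyond 50 kb. Later introns held 3.16 and 1.58 peaks per Mb at these distances. In every distance class first introns exceeded later introns per input signal, with ratios between 1.28 (1.07 to 1.54, at 20 to 50 kb) and 1.56 (1.28 to 1.90, at 3 to 5 kb). At the later-intron rate of each distance class 564 peaks would have fallen in first introns, and the 800 found were 1.42 times that number.

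Against regions outside genes, the excess close to TSSs depended on the scaling. Per input signal the ratio was 1.02 (0.853 to 1.22) at 3 to 5 kb, 1.03 (0.893 to 1.19) at 5 to 10 kb and 1.02 (0.876 to 1.19) at 10 to 20 kb. It was 1.20 (1.01 to 1.41) at 20 to 50 kb and 1.61 (1.22 to 2.11) beyond 50 kb. Per Mb, first introns exceeded the DNA outside genes at every distance, with ratios of 1.28 (1.07 to 1.53), 1.26 (1.09 to 1.46), 1.22 (1.05 to 1.41), 1.4 (1.18 to 1.65) and 2.76 (2.10 to 3.62). Gaps in the assembly were left in these lengths, and their part in the ratios per Mb was not tested. Up to 20 kb the rates could therefore not be told apart once the input signal was taken into account.

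**Figure D1:**
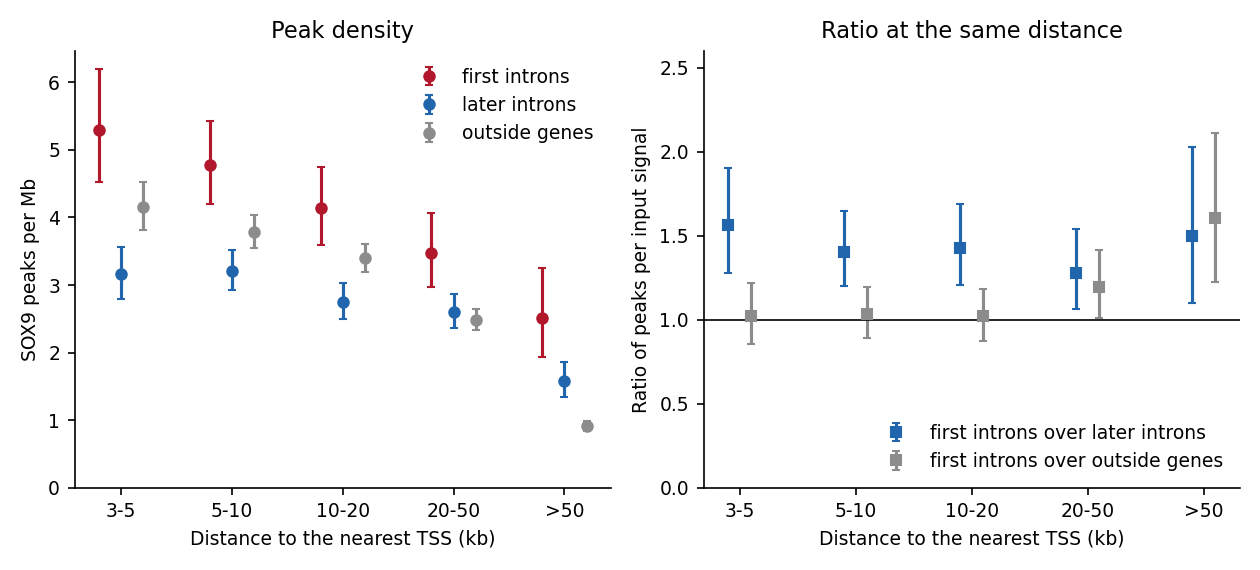
Left: SOX9 peaks per Mb in first introns (red), later introns (blue) and outside protein-coding genes (grey) by distance to the nearest TSS in kb. Right: ratio of peaks per input signal of first introns over later introns (blue) and over regions outside genes (grey), with a line at 1. Bars are 95% intervals from Poisson counts, and lengths include gaps in the assembly. First introns exceed later introns in all 5 classes, and per input signal exceed regions outside genes from 20 kb on.

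The peaks were spread along the whole of the introns. Their median position was 0.553 of the way through the intron (0.531 to 0.583), and when each intron was cut into 4 parts of equal length, starting from the gene's TSS, the parts held 142, 199, 249 and 210 peaks. Positions near the TSS were excluded, so the parts next to it had less eligible sequence. Per Mb the 4 parts held 3.72, 3.78, 4.64 and 4.23 peaks. Per input signal, the part just past the middle exceeded the rest 1.18-fold (1.02 to 1.38), while the intervals of the other parts included equality. The summit lay a median of 24940 bp from the TSS of its own gene (22005 to 28012) in introns with a median length of 51800 bp. Of the 800 summits, 76.0% were farther than 10 kb, 25.8% farther than 50 kb and 9.63% farther than 100 kb from that TSS. Another SOX9 summit lay within 10 kb for 320 of them.

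By chromosome, first introns of chromosome 19 had the most peaks for their length, with 25 peaks or 7.04 per Mb. Chromosomes 17 and 9 followed with 5.81 and 5.72 per Mb, whereas chromosomes 14 and 18 had 2.45 and 2.54 per Mb. Input coverage of the same introns was uneven in this line, at a mean of 1.14 extended tags per bin on chromosome 13 and 0.467 on chromosome 21. Per input signal, chromosome 19 was still the highest and chromosome 8 the lowest of those with a peak, and chromosome Y had none.

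By tags the peaks were weaker than those near TSSs, and like the peaks of the other classes they stood above the input. The median first-intron peak was 704 bp long and held 37 tags (36 to 39), with quartiles of 26 and 53 and a range of 12 to 216. Its fold enrichment over the local input, as given by the peak caller MACS, had a median of 10.62 (10.2 to 11.04) and reached 77.98. In the signal maps, the peaks had a median maximum of 19 extended tags per bin for the ChIP and 4 for the input. The ChIP maximum exceeded the input maximum in all 800 peaks and was at least 3 times as high in 678 of them (84.8%, 82.1% to 87.1%). The caller chose the peaks for enrichment over this same input, so these shares are no independent evidence. At least 3 times the input was reached by 85.9% of later-intron peaks, 84.9% of peaks outside genes and 78.6% of those within 3 kb of a TSS. The empirical false discovery rate of the single peak was 0 for 587 peaks (73.4%) and at most 0.06%.

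Other peaks away from TSSs were nearly the same in median strength. Later-intron peaks had a median of 36 tags (35 to 38) and peaks outside genes one of 35 (35 to 36), whereas peaks within 3 kb of a TSS had one of 52 (51 to 53). At least 100 tags were held by 45 first-intron peaks (5.63%, 4.23% to 7.44%) and by 86 later-intron peaks (5.10%, 4.15% to 6.26%). Strength changed little at the 3 kb limit: the 51 first-intron peaks at 3001 to 3500 bp from a TSS had a median of 36 tags, and the 38 peaks at 2501 to 3000 bp, just too close to be included, had one of 39.5. In all, 2048 summits fell in first introns, and the 1248 within 3 kb of a TSS had a median of 48 tags. With a stricter limit of 100 on the MACS score, 465 of the 800 peaks were left. A distance of 10 kb left 415, and use of the first intron of any protein-coding transcript gave 1271.

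**Figure D2:**
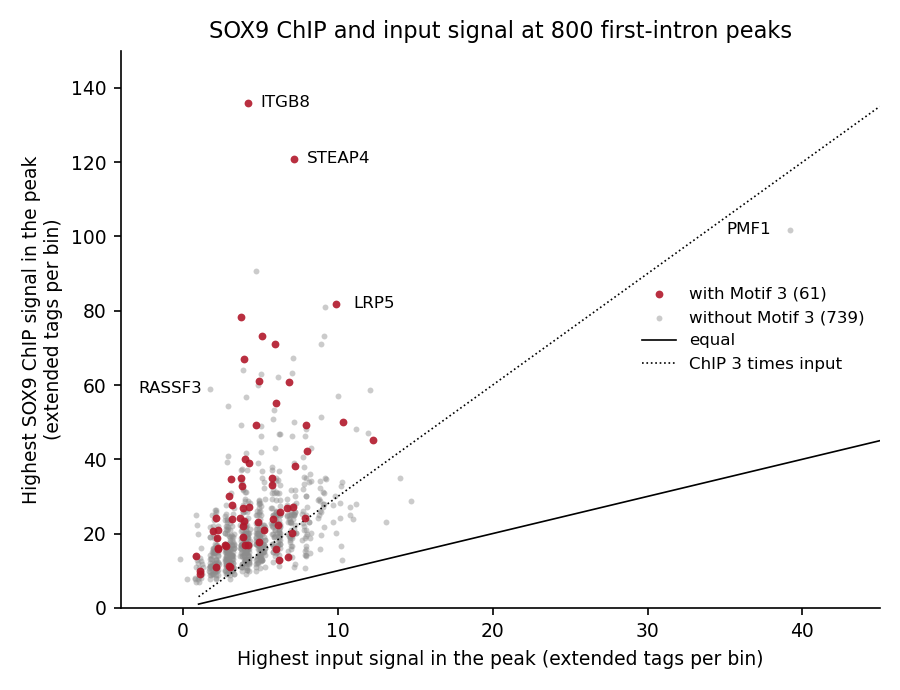
Highest SOX9 ChIP signal against the highest input signal in each of the 800 first-intron peaks, in extended tags per bin, with a small random shift to separate points. Red points have Motif 3, grey points do not, and the lines mark equal signal and a ChIP signal 3 times the input. All points lie above the line of equal signal. ITGB8 and STEAP4 reach 136 and 121 in the ChIP, and PMF1 stands apart with an input signal of 39.

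Averaged over the 800 summits, the ChIP signal was 21.3 extended tags per bin at the summit, where the input signal was 2.69. At 512 bp to the right of the summit the ChIP value was 2.49 and the input value 1.70. The profiles were centred on the summits of called peaks, so a ChIP maximum at that place is given by the alignment. The input had a small rise at the same place. The mean ChIP signal at the summits of the 1686 later-intron peaks was 21.8.

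**Figure D3:**
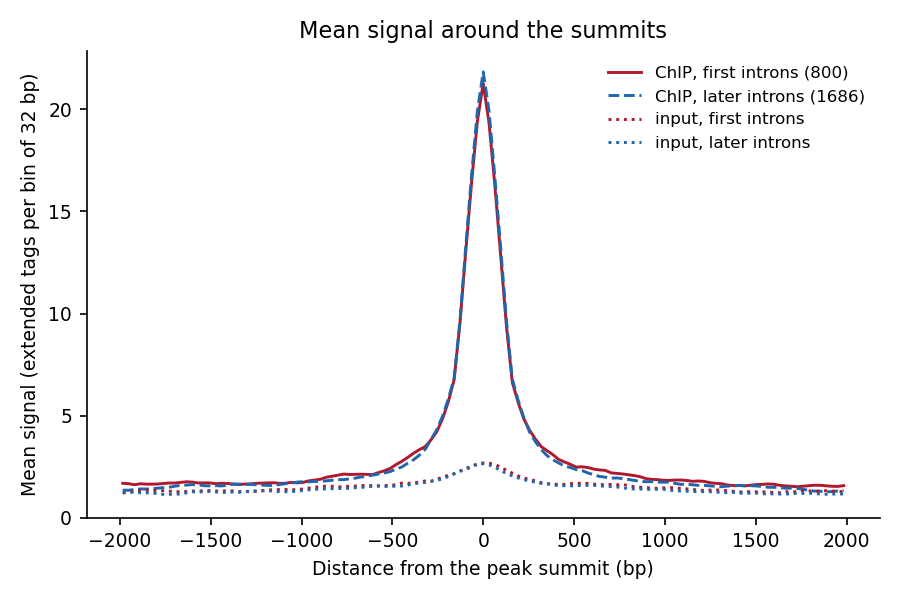
Mean signal in extended tags per bin of 32 bp against the distance from the peak summit in bp, for ChIP (solid red, first introns, and dashed blue, later introns) and input (dotted). The curves of first and later introns nearly coincide, with ChIP values of 21.3 and 21.8 at the summit.

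The strongest first-intron peaks lay in genes of varied function. The peak with the most tags was in STEAP4, a metalloreductase of the cell membrane. It held 216 tags (188 to 247, exact Poisson interval), 40.1 times the local input, with a ChIP maximum of 121 and an input maximum of 7. It spans chr7:87918627-87919611, with its summit 16958 bp from the gene's TSS in an intron of 22520 bp. This is the site shown above in which AACAATG faces a second copy with 1 mismatch, and the repeat lies 10 bp from the summit.

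ITGB8 encodes the integrin β8 subunit, which with αV binds latent TGF-β. Its stronger peak, at chr7:20380213-20381171, held 194 tags (168 to 223) and had the highest fold enrichment of all first-intron peaks, 77.98. The ChIP maximum was 136 and the input maximum 4. Its Motif 3 copy, shown above, has 1 mismatch and lies 24 bp from the summit. A second ITGB8 peak in the same intron held 40 tags and an AP-1 string. STEAP4 also had a second peak, 2083 bp from the first, with 73 tags and Motif 3.

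The next by tags was a peak in an intron shared by PMF1, a kinetochore protein, and the read-through gene PMF1-BGLAP. It held 193 tags, but the fold enrichment was only 5.04, the input maximum of 39 was the highest of the 800 peaks, and 77.1% of the bases around the summit were G or C. It thus differs from the other strong peaks in its input. ABTB2, ZNF710 and ARHGEF1 followed on other chromosomes, with 186, 185 and 164 tags and fold enrichments of 15.37, 18.47 and 23.7. ZNF710 is a zinc finger protein.

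A tie at 149 tags makes 11 peaks the ones with the most tags. LRP5, described below, is one, and 4 of the 11 were on chromosome 8. EXT1, an enzyme of heparan sulfate synthesis, had 172 tags, FER1L6 of the ferlin family 157, AGO2, the argonaute protein that cleaves targets of small RNAs, 149, and FBXO32, an F-box protein of a ubiquitin ligase, 149. Their windows of 1 Mb had 3.22 to 3.78 times the median input signal, and the part of this in the tag counts was not tested. Fold enrichment, which takes the input into account, was 9.86, 7.89, 5.80 and 13.89 for these peaks. Of all 800 peaks, 145 (18.1%) lay in windows with more than 1.5 times the median input signal.

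Ranked by fold enrichment instead, ITGB8 was followed by MAML3 (51.21), a coactivator of Notch signalling, and RASSF3 (50.89), a protein with a Ras association domain. TMEM45A (42.86), KIRREL3 (42.21), ROR1 (41.56), RALYL (40.82) and STEAP4 (40.1) completed the first 8. MAML3 and TMEM45A, with 115 and 104 tags, had both Motif 3 and an AP-1 string within 100 bp of the summit. ITGB8 and STEAP4 had Motif 3 without AP-1, KIRREL3 had AP-1 alone, ROR1 had Motif 2, and RASSF3 and RALYL had none of Motifs 1, 2 and 3, AP-1, forkhead, TEAD and HNF4 strings.

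Motif 2 was the most frequent SOX9 sequence in first-intron peaks, and of the SOX9 and AP-1 sequences, Motif 3 and AP-1 had the largest ratios to the flanking windows. Within 100 bp of the summit, Motif 2 was present in 268 of the 800 peaks (33.5%, 30.3% to 36.8%), against 23.7% of equally long windows placed 1 kb away on both sides. The difference was 9.81 percentage points (5.97 to 13.7). Motif 3 was present in 61 peaks (7.63%, 5.98% to 9.67%), against 1.5% of the flanking windows, 5.08 times as often. AP-1 strings were present in 171 peaks (21.4%, 18.7% to 24.3%), against 3.88% of the flanking windows, 5.52 times as often. Of all 17847 peaks, 20.5% had Motif 2, 3.57% had Motif 3 and 12% had AP-1. Among 96078 windows of the same length laid evenly over the first introns the shares were 26.3%, 2.55% and 2.99%.

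The 8 strings that Motif 2 allows were not equally frequent. AACAAAG was present in 10.6% of the peaks against 5% of the flanking windows, and AACAATG in 8% against 3.63%. ATCAAAG, which is also the core sequence of the Wnt effectors TCF and LEF, was present in 5.38% against 2.69%. ATCAATG went the other way, with 0.875% (0.424% to 1.80%) of the peaks and 2.94% of the flanking windows. For the other 4 strings the interval of the difference from the flanks included 0. Motif 2 without Motif 3 was found in 207 peaks.

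Motif 3 differed from the other sequences in position and spacing. Of the 107 copies within 300 bp of a summit, 52 lay within 50 bp of it, whereas of 790 copies of Motif 2 within 300 bp, 203 did. AP-1 strings stood in between, with 113 of 294 within 50 bp. When the spacer of facing copies was varied, 4 bp was found in 61 peaks, and each of the spacers from 0 to 12 bp apart from 4 in 17 to 30. Motif 3, with its spacer of 4 bp, was taken from the strongest of these same peaks, so this is no independent evidence. Copies facing away from each other with no spacer were found in 35 peaks (4.38%, 3.16% to 6.02%), against 1.25% of the flanking windows, which was the highest share for that orientation. The second copy of the 61 repeats was exact in 4, had 1 mismatch in 27 and 2 mismatches in 30.

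**Figure D4:**
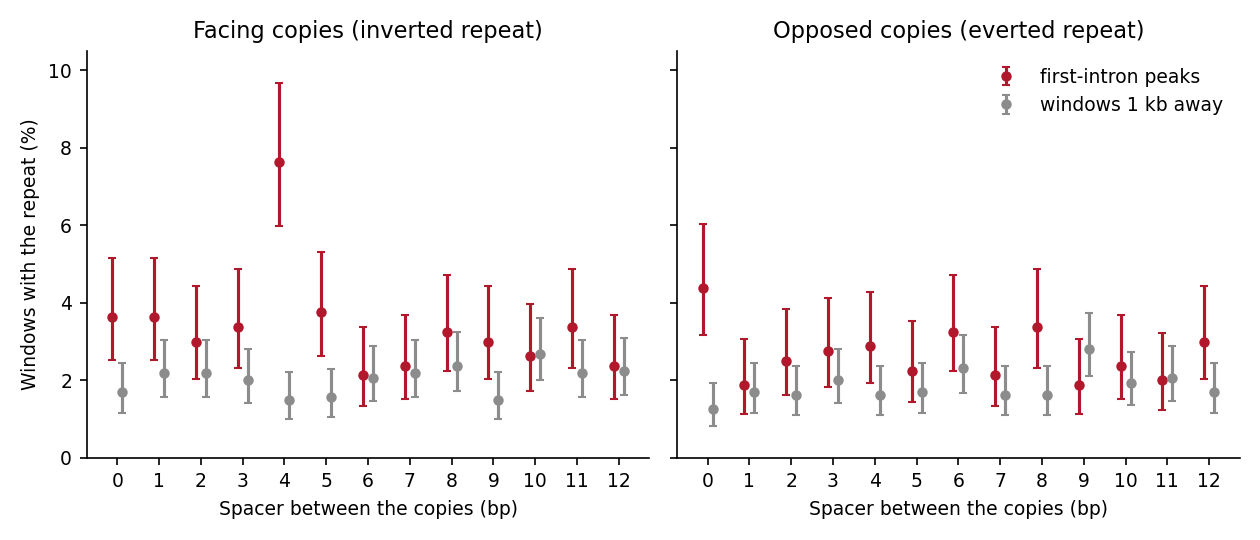
Share of windows of 201 bp, in percent, with a pair of SOX9 recognition sequences by the spacer between them in bp, for copies that face each other (left) and copies that face away (right). First-intron peaks are red, windows 1 kb away grey, and bars are Wilson 95% intervals. Facing copies with a spacer of 4 bp stand out at 7.63%, against 1.5% in the flanking windows.

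Peaks with Motif 3 held more tags. Their median was 52 (41 to 68), against 37 over all 800 peaks, and their median fold enrichment was 14.78, against 10.62. When the peaks were ranked by tags and cut into 4 classes, the highest class held 54 to 216 tags, and in it Motif 3 was present in 29 of 191 peaks (15.2%, 10.8% to 21.0%). In the lowest class, of 12 to 26 tags, it was present in 11 of 210 (5.24%, 2.95% to 9.13%), and the classes between had similar shares of 5.13% and 5.39%. Of the 45 peaks with at least 100 tags, 14 had Motif 3. The motif was found in the strongest peaks of these data, so its link with tags is no independent evidence. AP-1 showed a smaller gradient, with 25.7% (20% to 32.3%) in the highest and 17.6% (13.1% to 23.3%) in the lowest class, and these intervals overlap.

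AP-1 strings were no more frequent in the peaks with SOX9 sequences than in those without. They were present in 47 of the 268 peaks with Motif 2 or 3 (17.5%, 13.5% to 22.5%) and in 124 of the 532 peaks without (23.3%, 19.9% to 27.1%). In 344 peaks (43.0%) none of Motifs 1, 2 and 3 and of the AP-1, forkhead, TEAD and HNF4 strings was found, and these peaks had a median of 37 tags (34 to 39), the same as all 800 together. Motif shares depend on the window searched. Within 50 bp of the summit Motif 2 was found in 20.75%, Motif 3 in 6.13% and AP-1 in 12.4% of the peaks, and in the whole interval in 64.4%, 13.1% and 34.25%.

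Strings of other factors of the intestine were also more frequent at the summits than in the windows 1 kb away. Forkhead factors, such as FOXA proteins, bind TGTTTAC, which was present in 7.88% of the peaks, against 2.38% of the flanks. TEAD factors, the DNA-binding partners of YAP, bind ACATTCC, present in 6.75% against 3.13%. HNF4 (CAAAGTCCA) was rare, with 1.63% against 0.375%. For the CDX string TTTATG the shares were 18.6% and 12.4%, and for GATAA, bound by GATA factors, 32.3% and 25.4%. Against windows laid evenly over the first introns, the CDX and GATA shares did not stand out, since these windows had 16.3% and 31.0%, inside the intervals of the peaks (16.1% to 21.5% and 29.1% to 35.6%). The forkhead, TEAD and HNF4 strings were present in 3.04%, 2.80% and 0.233% of them. The GC box GGGCGG, bound by SP and KLF factors, was present in 10.8% of the peaks, 4.06% of the flanks and 2.62% of the evenly laid windows. The evenly laid windows had a median of 40.8% G or C, against 46.3% around the summits. The part of base composition in these shares was not tested. All were searched on both strands, and among all 17847 peaks the shares were 4.88%, 4.15%, 0.594%, 9.41%, 19.9% and 37.7% in the same order. Later-intron peaks had shares of 9.43%, 7.18%, 0.830%, 17.9%, 36.2% and 8.78% in that order. For each of these strings the interval of the difference between first-intron and later-intron peaks included 0, so the classes could not be told apart.

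For the CCAAT sequence no difference between first-intron peaks and the windows 1 kb away was detectable. Motif 1 was present in 1.75% (1.05% to 2.92%) of the peaks and 1.56% of the flanking windows, a difference of 0.188 percentage points (−0.830 to 1.46). CCAAT alone was present in 20.1% and 21.9%, a difference of −1.75 points (−5.11 to 1.76). Among peaks within 3 kb of a TSS, Motif 1 was present in 12.7%. Set against the windows laid evenly over the first introns, where CCAAT alone was present in 26.2% (26.0% to 26.5%), the share in the peaks was lower (17.5% to 23%), while Motif 1 was present in 1.68% of those windows. They were poorer in G and C than the peaks (medians of 40.8% and 46.3%), and the part of this was not tested. The ETS string CCGGAAG was present in 2% of first-intron peaks and 0.875% of the flanking windows, a difference of 1.13 points (0.160 to 2.40), and in 13.4% of peaks within 3 kb of a TSS.

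**Figure D5:**
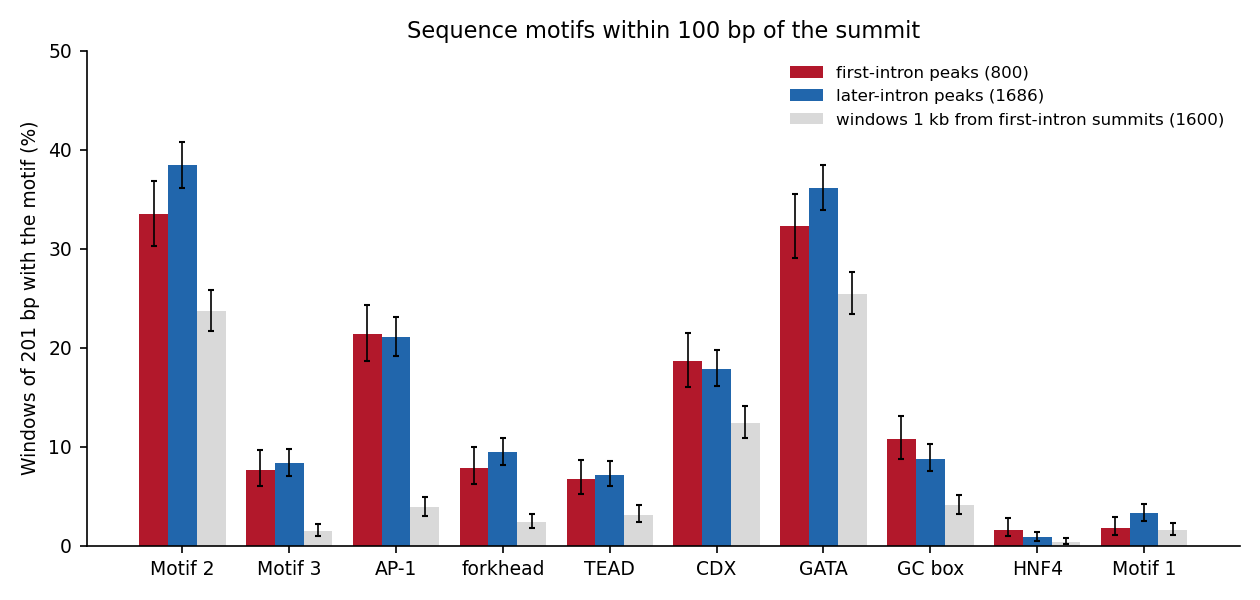
Share of windows of 201 bp with each motif, in percent, for first-intron peaks (red, 800), later-intron peaks (blue, 1686) and windows 1 kb to either side of the first-intron summits (grey, 1600), with Wilson 95% intervals. AP-1 reaches 21.4%, 21.1% and 3.88%, and Motif 3 reaches 7.63%, 8.30% and 1.5%.

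Compared with later-intron peaks, first-intron peaks less often had Motif 2. Motif 2 was present in 33.5% of first-intron and 38.4% of later-intron peaks, a difference of −4.93 percentage points (−8.89 to −0.881, Newcombe 95% interval). Of its 8 strings, the interval of the difference left out 0 for ATCAATG alone, with 0.875% against 2.79%. Motif 1 differed by −1.51 points (−2.70 to −0.127). For Motif 3 the difference was −0.679 points (−2.85 to 1.71) and for AP-1 0.319 points (−3.05 to 3.84), so that neither could be told apart between first and later introns. A total of 21 sequences was compared with later introns, and these intervals were not adjusted for their number. The bases around the summit were 46.3% G or C in the median of first-intron peaks (45.8% to 47.3%), against 44.8% in later-intron peaks (44.3% to 45.3%) and 44% in the windows beside the first-intron peaks. Peaks within 3 kb of a TSS had 65.7%.

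Among first-intron peaks, composition changed with the distance from the nearest TSS while the median tag count stayed between 36 and 40. The median GC content was 49.8% at 3 to 10 kb, 46.3% at 10 to 20 kb, 43.3% at 20 to 50 kb and 40.3% beyond 50 kb. The median tag count was 37, 37, 36 and 40 in the same classes. Motif 3 was present in 5.45% (3.59% to 8.19%) at 3 to 10 kb, 9.45% (6.14% to 14.3%) at 10 to 20 kb, 10.2% (6.37% to 15.9%) at 20 to 50 kb and 8.77% (3.81% to 18.9%) beyond. These intervals overlap. AP-1 was present in 20.3%, 19.9%, 26.1% and 21.1%.

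The 800 peaks were shared out over 610 host genes. These were 7.04% of the 8662 protein-coding genes whose first intron had any base farther than 3 kb from every TSS, and this share is the background for the gene groups below. A single peak was found in 482 genes, 2 peaks in 87, 3 in 24, 4 in 10 and 5 or more in 7. The share rose with length. With the eligible genes cut into 4 classes of equal number by the length of eligible sequence, 0.785% were hosts in the class of the shortest, 2.86% and 6.56% in the next classes, and in the class of the longest 18.0% (16.4% to 19.6%). Per Mb the order was the reverse, with 6.71, 5.66, 5.03 and 3.8 peaks. Of the 800 peaks, 19 lay in first introns of more than 1 gene and were counted for each.

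Genes with a SOX9 summit at their own promoter had first-intron peaks at a higher rate. Of the 610 host genes, 317 (52.0%, 48.0% to 55.9%) had a summit within 1 kb of their own canonical TSS, against 3474 of 8052 other eligible genes (43.1%, 42.1% to 44.2%). Over all eligible genes the share was 43.8%. The difference was 8.82 percentage points (4.71 to 12.9). In the class of genes with the longest eligible sequence, where most hosts were, the shares were 50.4% of hosts and 37.9% of other genes, a difference of 12.5 points (7.07 to 17.9). In the class with the shortest, with 17 hosts, the difference was −1.68 points (−21.4 to 21.2). Per Mb of first intron, genes with a promoter summit had 6.29 peaks and genes without one 3.02, a ratio of 2.08 (1.81 to 2.39). This ratio was not matched for length, although density fell from 6.71 to 3.8 peaks per Mb from the shortest to the longest class. The part of length in it was not tested. No expression data were used here, and whether the rate follows the activity of the gene was not tested.

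The genes with the most first-intron peaks had very long first introns. CMSS1 had 11 in an intron of 328929 bp, and 8 of them lay also in the first intron of FILIP1L, a filamin-interacting protein encoded on the other strand, so that they cannot be assigned to either gene. The strongest of the 8 held 116 tags at a fold enrichment of 21.75, and the others 16 to 45. MAML2, a coactivator of Notch signalling like MAML3, had 10 peaks of 23 to 88 tags in an intron of 247865 bp, none of them above a fold enrichment of 13.1. IQCJ had 6 peaks of 29 to 58 tags within its intron of 176401 bp. PDE4D, a phosphodiesterase that breaks down cyclic AMP, had 6 of 13 to 43 tags in an intron of 677200 bp, the farthest of them 590142 bp from its TSS.

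ROR1, a receptor for WNT5A, had 8 peaks in an intron of 234797 bp. They held 98, 58, 17, 50, 137, 107, 39 and 45 tags in order along the chromosome, from 103877 to 232965 bp from the TSS. The 2 strongest lay 2069 bp apart, at chr1:64434938-64436434 and chr1:64436777-64437939, and had none of the SOX9 sequences within 100 bp of their summits. The peak with 98 tags had the highest fold enrichment of the 8, 41.56, and Motif 2.

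Of the genes that the study names for this experiment, 16 were eligible and 4 were hosts, with 12 peaks in all. The study chose them from these same peaks, so their share is no independent evidence. LRP5, a co-receptor for Wnt proteins, had 4 peaks. The strongest, at chr11:68095290-68096767, held 149 tags (126 to 175) at a fold enrichment of 22.92 and carries the exact inverted repeat shown above, 22 bp from the summit. Its ChIP maximum was 82 and its input maximum 10. The others held 60, 62 and 56 tags at 9.92, 7.98 and 7.29-fold, and LRP5 had no summit within 1 kb of its canonical TSS.

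RASSF3 also had 4 peaks, with 97 (78.7 to 118), 22, 39 and 70 tags and fold enrichments of 50.89, 9.11, 12.09 and 8.04. The strongest reached 59 in the ChIP signal and 2 in the input. It was the only one of the 800 peaks to contain an amplicon of the study's ChIP-qPCR primers, out of 25 primer pairs that matched the genome. The amplicon is 97 bp long, at chr12:65033368-65033464, and its middle lies 24 bp from the summit. Within 100 bp of the summit none of the SOX9 sequences was found, and the whole interval holds 1 copy of Motif 2. The study used another motif search, so this says only that the strings as defined here are not in that window. The primers and 121 bases around the summit (its base in capitals, chr12:65033332-65033452) are shown because this site was followed up in the study.
RASSF3 forward primer: ttgaagtcacctggaatgctc
RASSF3 reverse primer: gaaaccacaaactacacctgg
RASSF3 summit: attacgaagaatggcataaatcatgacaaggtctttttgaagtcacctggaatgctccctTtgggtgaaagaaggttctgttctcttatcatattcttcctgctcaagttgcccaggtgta

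SMAD3, which carries TGF-β signals to the nucleus, had 2 peaks of 69 and 43 tags with fold enrichments of 7.82 and 6.72, both with an AP-1 string and the stronger also with Motif 2. LRIG1, a membrane protein that restrains ERBB receptors and marks intestinal stem cells, had 2 peaks of 52 and 14 tags. Their fold enrichments of 20.54 and 15.65 were higher than those of SMAD3. The 1 Mb window of LRIG1 had 0.679 times the median input and that of SMAD3 1.78 times.

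Among genes of signalling pathways, the share of hosts was above the background of 7.04%, in lists whose genes have longer first introns than most. The count that eligible genes would give when matched by length, in 10 classes, is therefore set beside each. The Wnt, TGF-β and BMP, RASSF and stem cell lists hold LRP5, SMAD3, RASSF3 and LRIG1, which the study chose from these same peaks. All lists were written with earlier results of these data known, so these counts are no independent evidence. Of 24 eligible Wnt pathway genes 7 were hosts (29.2%, 14.9% to 49.2%), against 2.57 by length. After LRP5 and ROR1 the strongest were BCL9L, a coactivator of β-catenin, with 135 tags at 6.68-fold, and ZNRF3, a ubiquitin ligase that removes Wnt receptors from the membrane, with 3 peaks of 123, 77 and 38 tags. Of 28 genes of the TGF-β and BMP pathways 6 were hosts (21.4%, 10.2% to 39.5%), against 3.22 by length. They included the activin receptor ACVR1B with 72 tags and Motif 3, the ligand TGFB2 with 59 tags and the receptor ACVR1 with 36.

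Of 20 genes of the Hippo pathway 5 were hosts (25%, 11.2% to 46.9%), against 2.27 by length, and all 5 also had a promoter summit. Of all host genes 52.0% had one. WWC1, an upstream activator of the pathway, had 4 peaks of 93, 64, 38 and 33 tags, and PTPN14, NF2 and TEAD3 had peaks of 40, 36 and 31 tags. Of 30 receptor tyrosine kinase genes 8 were hosts (26.7%, 14.2% to 44.4%), against 2.98. For the TGF-β and BMP list and the Hippo list, the interval includes the share that length gives. EGFR had 2 peaks of 64 and 54 tags with AP-1 strings and no promoter summit, PTK7 had 2 of 44 and 15, and EPHB3, which positions cells along the crypt, had 1 of 39.

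The genes of integrins and focal adhesions had hosts in 11 of 30 (36.7%, 21.9% to 54.5%), against 3.31 by length. Besides ITGB8, peaks lay in ACTN4, an actin cross-linker, with 128 tags at 8.16-fold, in PTK2, the focal adhesion kinase, with 104 tags and Motif 3, and in TNS3, a tensin, with 92 tags. PTK2 lies on chromosome 8 in a window with 3.76 times the median input. The integrin genes ITGA2 and ITGA6 had peaks of 41 and 44 tags, each with an AP-1 string. Of 38 eligible genes of cell adhesion and junctions 10 were hosts (26.3%, 15.0% to 42.0%), against 3.74, with MAGI3 at 64, MAGI2 at 63, NECTIN1 at 61 and F11R at 54 tags.

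Smaller lists gave smaller counts. Of the 6 eligible RASSF genes 4 were hosts (66.7%, 30.0% to 90.3%), against 0.497 by length, with RASSF9 at 56, RASSF6 at 31 and RASSF5 at 27 tags after RASSF3. Of 27 transcription factors of the gut 6 were hosts (22.2%, 10.6% to 40.8%), against 1.90, among them the retinoid receptor RXRA with 4 peaks of up to 100 tags, KLF3 with 70, CASZ1 with 68 and SPDEF, a factor of goblet cells, with 50. Of 11 intestinal stem cell markers 4 were hosts (36.4%, 15.2% to 64.6%), against 1.22: ZNRF3, LRIG1, EPHB3 and CD44, the last with 43 tags. All 4 are also counted in lists above: ZNRF3 under Wnt, LRIG1 among the study's genes, EPHB3 under receptor tyrosine kinases and CD44 under adhesion. Of 13 SOX9 target genes of cartilage 2 were hosts (15.4%, 4.33% to 42.2%, which includes the share that length gives), against 1.27, namely PAPSS2 with 77 tags and TRPV4 with 68, and neither had a promoter summit.

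No first-intron peak was found in 8 eligible AP-1 genes (0% to 32.4%) or 10 eligible G2/M cell cycle genes (0% to 27.8%). Their eligible sequence was short, with medians of 2551.5 and 1982.5 bp, against 8738 bp over all eligible genes, and by length 0.244 and 0.151 hosts would have been found. All 10 of the G2/M genes had a promoter summit, and so did 5 of the 8 AP-1 genes, against 43.8% of all eligible genes. The lists were written with earlier results of these data known, and a share above the background in them is a description of these genes.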

How the data were processed

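SOX9 ChIP-seq of HT-29 cells was analysed from 1 ChIP and 1 input library. Per the study's methods, the authors aligned 50-nt reads to hg19 with BWA, kept unique alignments without duplicates, reduced the input to the ChIP alignment number and called peaks with MACS (p cut-off 1.00e-07, model fold 16, band width 150 bp). Of the deposited columns, tags are a count of ChIP reads per peak. The deposited score equals −10 times the log10 of the caller's p-value. The deposited fold enrichment is a ratio of ChIP over local input, and the deposited FDR is a percent. The signal in the maps deposited by the authors counts extended tags (150 bp) per 32-nt bin. Unique tags numbered 12319746 (ChIP) and 12320062 (input) per the file headers. The interval file repeats the peak table and was not used.

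Summits were placed on GENCODE release 44 mapped to hg19, with all its transcripts as TSSs. In order, a summit within 3 kb of a TSS, in a first intron, on an exon, in a later intron or outside genes was given the first class that applied. Territory and input signal were summed over bins by the same classes, and gaps in the assembly were not removed. Motifs were searched within 100 bp of the summit and in equally long windows 1 kb away on both sides. Shares have Wilson, differences Newcombe, rate ratios Poisson and medians order-statistic 95% intervals. Peaks are not replicates, and no test over samples was possible. The procedures were tested on simulated data with planted motifs and positions. Software was pandas 2.3.3, SciPy 1.17.1, NumPy 2.4.6 and matplotlib 3.10.9 under Python 3.11.15.

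The members and lists were chosen with earlier results of these data known. All 512 symbols of the 14 lists were found in the annotation, and 296 were eligible. The result of 1 list is not reported here. Named are the hosts of the 10 peaks with the most tags (11 with a tie) and of the 8 with the highest fold enrichment, the 6 genes with the most peaks, the hosts among the genes the study names, and up to 4 hosts per list by tags. Sequences on chromosome 8 are not shown. The 3 further exact repeats and the integrin genes beyond these were chosen after their values were seen. Alternatives were a stricter score, the interval midpoint, coding TSSs, other distances, any coding transcript, other motif windows, and the exclusion of windows of high input. NF-YA, knockdown and binding assays were not analysed here.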

Additional observations from a re-analysis of the deposited data

How the results depend on the processing

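The excess of first-intron over later-intron peaks per input signal held under all 7 alternatives to the main setting, with ratios of 1.38 to 1.48. With only peaks of a MACS score of at least 100, 465 peaks remained, with a median of 47 tags and a fold enrichment of 12.2, Motif 3 was present in 11.2%, 4.39% of eligible genes were hosts, and 40.3% of hosts had a promoter summit, against 34.0% of other eligible genes at that score, a difference of 6.23 percentage points (1.31 to 11.3). Over the 7 alternatives this difference was 6.23 to 12.7 points. A limit of 10 kb left 415 peaks in 7.93% of eligible genes, and 1 kb gave hosts in 6.11%. The first intron of any protein-coding transcript gave 1271 peaks in 8.54% of genes. Without windows of high input, the median was 35 tags and the fold enrichment 11.07. With the interval midpoint, AP-1 was present in 16.9%. Within 50 bp of the summit the shares were 20.75% for Motif 2, 12.4% for AP-1 and 0.875% for Motif 1. In the whole interval, which holds more bases, they were 64.4% for Motif 2, 13.1% for Motif 3, 34.25% for AP-1 and 4.75% for Motif 1.

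No paired analysis was possible because there was 1 ChIP and 1 input library. With 1 biological replicate, the variation of peaks between experiments is unknown, and peaks with few tags, 101 of 800 under 20, are the least certain. The annotation decides which intron is the first, and it was not matched to the transcripts that HT-29 cells use. A peak in a gene's intron was not shown to act on that gene.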
